A study of Mus musculus with 12 samples.

Results

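The comparison described here set 6 mice given azoxymethane and dextran sulfate sodium (AOM/DSS) against 6 mice given neither, with swimming as a second term, and so asked which colorectal transcripts moved with AOM/DSS whether or not the mice swam. All 12 libraries of the series entered it. The 6 AOM/DSS mice were Model 1 to 3, which did not swim, and Model_Swim 1 to 3, which swam. The 6 mice without AOM/DSS were Ctrl 1 to 3, which did not swim, and Ctrl_Swim 2 to 4, which swam. All were male C57BL/6 mice bought at 4 weeks of age. AOM was a single intraperitoneal dose of 10 mg/kg, and DSS was given at 2% in the drinking water for 3 cycles of 7 days each. Mice of the Ctrl and Ctrl_Swim groups drank ordinary water. The swimming mice trained for up to 90 min a day before and during AOM/DSS, and the mice that did not swim were placed in shallow water. No group received AOM alone or DSS alone, so the carcinogen and the colitis that DSS causes cannot be told apart here. RNA came from whole colorectal tissue, cut from the distal cecum to the rectum with the fatty tissue taken off, and no separation of tumours from the tissue around them is described in the sources used here. In such bulk tissue, fewer cells of a type and less RNA per cell cannot be told apart.

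AOM is an alkylating carcinogen whose colon tumours commonly carry activating changes in beta-catenin, the transcriptional arm of the Wnt pathway. In normal colon, Wnt ligands keep the stem cells at the crypt base dividing, and target genes such as Notum, Wif1, Nkd1 and Axin2 encode inhibitors that feed back on the signal. DSS wounds the epithelium, lets luminal bacteria reach the mucosa, and draws in neutrophils and monocytes through interleukin 1, TNF and chemokines of the CXC family. Repeated wounding is followed by matrix remodelling by metalloproteinases and by collagen deposition from fibroblasts, while the surface colonocyte normally runs on the oxidation of butyrate in its mitochondria.

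Levels are given as CPM, the gene's counts as a share of the library's total and scaled between libraries, and effects as log2 fold changes with standard errors (SE), where 1 is a doubling. A gene is said to have risen or fallen where its adjusted p was under 0.05, and to be differential where its fold change was also over 2 or under 0.5. The libraries held 17256953 to 19451055 counts, so that 3 counts were worth 0.153 to 0.172 CPM. All 12 libraries had the RNA of colon: Epcam, of epithelial cells, lay between 1251 and 1658 CPM, Muc2, the goblet cell mucin, between 3836 and 12815 CPM, and Myh11, of smooth muscle, between 1546 and 2660 CPM. Several libraries stood apart. Model 1 and Model 3 held 56612 and 27645 CPM in all of pancreatic acinar genes, against 209 to 399 CPM in the other AOM/DSS mice and 206 to 709 CPM in the mice without. Genes of squamous epithelium, as in the lining of the anus, summed to 191 to 1324 CPM without AOM/DSS, highest in Ctrl_Swim 4, and to 221 to 2729 CPM with it, lowest in Model 3. Hoxb13, a homeobox gene of the distal colon and rectum, was at 7.58 CPM in Model 3 and at 53.3 to 170.2 CPM in the other mice. Values without Model 1 and Model 3 are therefore given beside some of the results that rest on them.

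AOM/DSS was followed by more large increases than large decreases. Of 15484 genes tested, 488 were differential and higher (3.15%) and 97 differential and lower (0.626%). By adjusted p alone the sides were even, with 2225 genes risen (14.4%) and 2207 fallen (14.3%), and the median log2 fold change of all genes tested was 0.00. The excess of increases thus lay in the sizes. The differential genes had a median log2 fold change of 1.68 above and -1.37 below, and 178 rose more than 4-fold against 22 that fell as far. The levels of the 6 AOM/DSS mice all lay above those of the 6 others in 924 genes (5.97%) and all below in 997 genes (6.44%). Among the differential genes, 223 of the 488 higher and 31 of the 97 lower were without overlap in this sense. Of the 585 differential genes, 371 stayed differential whichever of the 12 mice was left out, 324 of them higher and 47 lower. Without Ctrl_Swim 4, 862 genes were higher, the only change of over 1.5 times in either count when 1 mouse was left out. Without Model 1 and Model 3, 451 genes were higher and 75 lower, and 451 of the 585 stayed differential. Those kept were 398 of the 488 higher and 53 of the 97 lower genes. A smaller share of the decreases than of the increases was thus kept, both here and over the fits that left out 1 mouse.

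By fitted fold, the 12 largest increases without overlap between the 6 and 6 mice were Pnliprp1, Notum, Cxcl5, Khdc1a, Prss22, Cxcl2, R3hdml, Onecut2, Il1a, Cxcl1, Il1b and Mmp10. Notum, at chr11:120653788-120661193 in GRCm38.p6, encodes a secreted enzyme that removes the lipid group that Wnt proteins need for activity. Its level ran from 0.631 to 104 CPM (median 26) in the AOM/DSS mice and from 0.110 to 0.552 CPM (median 0.351) in the mice without. It was lowest in Model 3 among the AOM/DSS mice, still above every mouse without (log2 fold change 6.54 ± 1.02 SE, adjusted p = 0.00108). Khdc1a (chr1:21349677-21352199) ran from 1.03 to 23.9 CPM (median 10.96) in the AOM/DSS mice and from 0.0511 to 0.330 CPM (median 0.109) in the mice without (adjusted p = 2.0e-04). Prss22 (chr17:23993534-24000722), a serine protease of epithelia, ran from 0.804 to 18.4 CPM (median 13.98) in the AOM/DSS mice and from 0 to 0.460 CPM (median 0.0811) in the mice without (adjusted p = 9.2e-04). Onecut2 (chr18:64340032-64398488), a homeobox transcription factor, was at a median of 1.92 against 0.131 CPM (adjusted p = 0.00307). These 3 genes averaged under 3 counts in the mice without AOM/DSS, so they have a direction but no fold of firm size. R3hdml (chr2:163491439-163502621) was at a median of 4.84 against 0.382 CPM (log2 fold change 4.10, adjusted p = 0.00102). Pnliprp1, a pancreatic lipase-related gene, had the highest fold of all by this rule (log2 fold change 6.75), but it stood at 2017 and 1206 CPM in the 2 mice with acinar transcripts and at 6.16 to 21.3 CPM in the other AOM/DSS mice. Without those 2 mice its log2 fold change was 3.09, adjusted p = 0.00742.

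**Figure D1:**
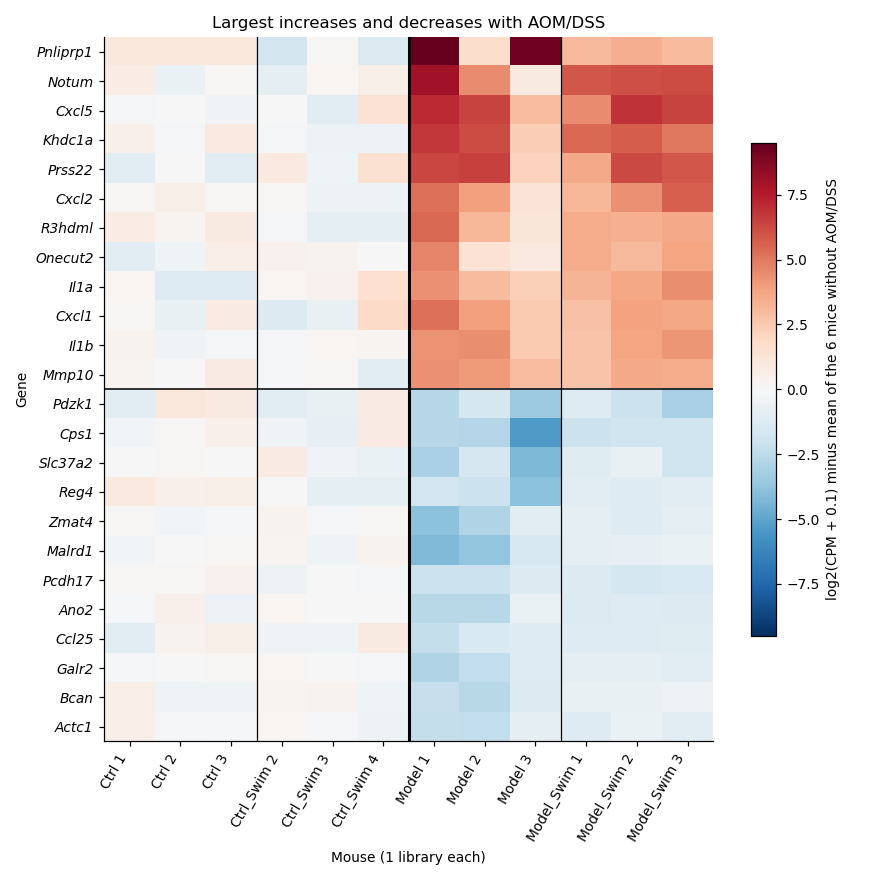
Rows are the 12 largest increases and 12 largest decreases without overlap, columns the 12 mice, and colour is log2(CPM + 0.1) minus the mean of the 6 mice without AOM/DSS. The 6 AOM/DSS columns are red throughout the upper rows and blue throughout the lower ones, with Pnliprp1 darkest in Model 1 and Model 3.

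Chemokines that draw neutrophils through the receptor Cxcr2 stood out among the ligands. Cxcl5, Cxcl3, Cxcl1 and Cxcl2 lie within one stretch of chromosome 5, at chr5:90759298-90761625, chr5:90786101-90788093, chr5:90891245-90893121 and chr5:90903899-90905938. Cxcl5 had no entry among the promoter sequences used here, so its promoter was not searched. The 250 bases before the annotated starts of Cxcl3, Cxcl1 and Cxcl2 are shown because these genes rose together. They are from RefSeq (GRCm38.p6, plus strand, 5′ to 3′), and capitals mark matches to GGNNTTTCC, a form of the motif bound by NF-kappaB factors, on either strand.
Cxcl3, chr5:90785851-90786100: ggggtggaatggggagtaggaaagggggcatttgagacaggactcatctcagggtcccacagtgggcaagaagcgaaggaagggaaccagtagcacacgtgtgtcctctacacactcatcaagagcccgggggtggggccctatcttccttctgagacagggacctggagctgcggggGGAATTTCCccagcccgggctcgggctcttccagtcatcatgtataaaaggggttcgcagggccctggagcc
Cxcl1, chr5:90890995-90891244: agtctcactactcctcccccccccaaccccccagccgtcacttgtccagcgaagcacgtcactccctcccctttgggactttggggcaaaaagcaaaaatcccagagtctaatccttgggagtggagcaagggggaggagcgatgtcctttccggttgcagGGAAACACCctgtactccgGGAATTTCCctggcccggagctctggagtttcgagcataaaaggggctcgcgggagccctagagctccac
Cxcl2, chr5:90903649-90903898: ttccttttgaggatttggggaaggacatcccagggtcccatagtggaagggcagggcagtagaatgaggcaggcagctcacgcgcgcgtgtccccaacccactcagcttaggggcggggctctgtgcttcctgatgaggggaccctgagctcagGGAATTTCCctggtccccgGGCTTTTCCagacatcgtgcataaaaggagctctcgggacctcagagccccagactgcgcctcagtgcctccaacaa

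The matches began at -72 in Cxcl3, at -89 and -70 in Cxcl1 and at -96 and -77 in Cxcl2, counted from the start site. Where a sequence holds 2 matches, they do not overlap. The motif was found in 7 of 21 listed chemokine promoters (33.3%), in 43 of 391 promoters of differential genes that were higher (11%), in 2 of 81 of those that were lower (2.47%), and in 5.22% of the 14999 promoters of tested genes. These are matches of letters in a fixed window, with no measure of binding.

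Levels of the 4 genes were low or absent without AOM/DSS. Cxcl5 ran from 2.98 to 55.5 CPM (median 35.04) in the AOM/DSS mice and from 0.106 to 0.971 CPM (median 0.302) in the mice without, without overlap (log2 fold change 6.35 ± 0.78 SE, adjusted p = 3.2e-04). Cxcl1 ran from 1.26 to 9.22 CPM (median 3.25) in the AOM/DSS mice and from 0 to 0.767 CPM (median 0.110) in the mice without, also without overlap (log2 fold change 3.92 ± 0.76 SE, adjusted p = 0.00350). Cxcl2 was at or below 0.109 CPM in every mouse without AOM/DSS, under the 3-count level, and at 5.31 in Model 1, 2.02 in Model 2, 0.230 in Model 3, 1.16 in Model_Swim 1, 2.77 in Model_Swim 2 and 7.05 in Model_Swim 3 CPM, so the sign of the difference was the same in all mice while its fitted fold depends on the prior count (adjusted p = 9.6e-04). Cxcl3 had no read in the 6 mice without AOM/DSS and was at 5.09 in Model 1, 3.81 in Model 2, 0 in Model 3, 0.165 in Model_Swim 1, 3.92 in Model_Swim 2 and 7.85 in Model_Swim 3 CPM (adjusted p = 0.0155). No fold is given for it. Of the 29 chemokines listed, 26 were tested, with a median log2 fold change of 0.51. Of these, 11 rose, 5 fell and 10 did not pass the test, where 14.4% of all genes rose and 14.3% fell. The other increases were smaller. They were those of the monocyte attractants Ccl2 (log2 fold change 1.82, adjusted p = 0.00297) and Ccl8 (0.68, adjusted p = 0.0172), of Ccl20, which draws Ccr6-bearing lymphocytes (1.44, adjusted p = 0.00403), of the interferon-induced Cxcl9 (1.40, adjusted p = 0.00826) and Cxcl10 (1.08, adjusted p = 0.0261), of Ccl3 (1.60, adjusted p = 0.0307) and of Cxcl16 (0.89, adjusted p = 5.7e-04). Ccl25, which guides lymphocytes to the gut through Ccr9, went the other way. It ran from 1.98 to 4.35 CPM (median 4.19) in the AOM/DSS mice and from 4.91 to 18.3 CPM (median 10.3) in the mice without, without overlap (log2 fold change -1.55 ± 0.31 SE, adjusted p = 0.00375). The eosinophil attractant Ccl11 (-0.52, adjusted p = 0.0173) and Ccl6 (-0.46, adjusted p = 0.00447), Ccl9 (-0.37, adjusted p = 0.0368) and Ccl28 (-0.19, adjusted p = 0.0470) fell by less. Of the chemokines, 3 fell without Ctrl 1, Ctrl 3, Ctrl_Swim 2 or Model 1.

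Cytokines of innate inflammation rose in most members of their list. Of the 40 interleukin, TNF and receptor genes listed, 35 were tested, with a median log2 fold change of 0.81. Of these, 25 rose, 0 fell and 10 did not pass the test, where 14.4% of all genes rose. Il1b (chr2:129364569-129371164) ran from 6.37 to 24.7 CPM (median 18.4) in the AOM/DSS mice and from 0.818 to 1.38 CPM (median 1.08) in the mice without, a gap of more than 4-fold between the lowest AOM/DSS mouse and the highest of the others (log2 fold change 3.89 ± 0.37 SE, adjusted p = 8.1e-05). Its sister gene Il1a ran from 1.03 to 4.93 CPM (median 2.46) in the AOM/DSS mice and from 0 to 0.613 CPM (median 0.165) in the mice without (log2 fold change 4.03 ± 0.66 SE, adjusted p = 0.00147). Tnf ran from 2.37 to 8.52 CPM (median 5.10) in the AOM/DSS mice and from 0.440 to 1.07 CPM (median 0.705) in the mice without (log2 fold change 2.73 ± 0.36 SE, adjusted p = 4.7e-04). None of these overlapped between the 2 sets of mice. The interleukin 1 antagonist Il1rn rose as well (log2 fold change 1.15, adjusted p = 0.00120), as did the decoy receptor for RANK ligand, Tnfrsf11b (2.40, adjusted p = 0.00120), Il11, a fibroblast cytokine of the interleukin 6 family (2.16, adjusted p = 0.00210), Osm of the same family (2.01, adjusted p = 0.0155), and Il23a, a subunit of interleukin 23 (2.06, adjusted p = 0.0271). Il17a (0.585 against 0.0635 CPM on average, adjusted p = 0.00806) and the granulocyte growth factor Csf3 (at most 0.106 CPM without and at least 0.172 CPM with AOM/DSS, adjusted p = 0.00484) rose from levels under 3 counts, where a fold has no firm size.

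Most neutrophil genes rose, but not to the same height in every mouse. Of 24 listed, 19 were tested, and 15 rose, 0 fell and 4 did not pass the test, where 14.4% of all genes rose. The neutrophil genes had a median log2 fold change of 2.67. Their summed level ran from 38.4 to 80.3 CPM (median 47.1) in the mice without AOM/DSS and from 80.2 to 668 CPM (median 441) in the mice given it. It was lowest in Model 3 (80.2 CPM) and Model_Swim 1 (91.7 CPM), next to the highest of the mice without. S100a9, a subunit of the neutrophil protein calprotectin, ran from 2.70 to 87.2 CPM (median 22.8) in the AOM/DSS mice and from 0.221 to 3.48 CPM (median 1.01) in the mice without (log2 fold change 4.65 ± 0.86 SE, adjusted p = 0.00264), and its partner S100a8 ran from 1.38 to 29.6 CPM (median 7.92) in the AOM/DSS mice and from 0.0550 to 2.45 CPM (median 0.191) in the mice without (log2 fold change 4.42 ± 0.94 SE, adjusted p = 0.00566). The ranges of both touched at their ends. Ltf, the iron-binding lactoferrin, was at 192 in Model 1, 329 in Model 2, 0.976 in Model 3, 17.3 in Model_Swim 1, 547 in Model_Swim 2 and 247 in Model_Swim 3 CPM, against 0.773 to 10.8 CPM without (log2 fold change 6.46 ± 1.21 SE, adjusted p = 0.00291). The summed level of the list thus rested in large part on Ltf where it was high. Ltf was 547 of 668 CPM in Model_Swim 2 and 329 of 473 CPM in Model 2, but 0.976 of 80.2 CPM in Model 3. Cxcr2, the receptor of the chemokines above, rose (log2 fold change 3.42, adjusted p = 0.00620), and so did Csf3r, the receptor of Csf3 (1.88, adjusted p = 2.7e-04). Ly6g, the surface marker used to sort mouse neutrophils, rose less (log2 fold change 1.31, adjusted p = 0.0345), and its call was lost in 6 of the 12 fits that left 1 mouse out.

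Genes of monocytes and macrophages moved by smaller steps and more evenly. All 25 listed were tested, and 19 rose, 0 fell and 6 did not pass the test, where 14.4% of all genes rose. Of the 25, 17 were higher without overlap between the 6 and 6 mice, against 5.97% of all genes. Cd68, a lysosomal protein of macrophages, ran from 25.2 to 28.7 CPM (median 26.3) in the AOM/DSS mice and from 9.81 to 14.2 CPM (median 10.7) in the mice without (log2 fold change 1.21 ± 0.10 SE, adjusted p = 6.2e-05). Lyz2, the lysozyme of myeloid cells, ran from 316 to 422 CPM (median 392) in the AOM/DSS mice and from 143 to 214 CPM (median 169.7) in the mice without (log2 fold change 1.11 ± 0.11 SE, adjusted p = 8.8e-05). Gpnmb, a glycoprotein of lipid-laden macrophages, ran from 47.4 to 91.4 CPM (median 83.7) in the AOM/DSS mice and from 14.3 to 21.8 CPM (median 18.6) in the mice without (log2 fold change 2.04 ± 0.17 SE, adjusted p = 6.2e-05). The 3 complement genes C1qa, C1qb and C1qc rose by 0.60, 0.87 and 0.72 on the log2 scale, and Ccr2, which marks monocytes recruited from blood, by 1.18 (adjusted p = 0.00120). Arg1, the arginase of alternatively activated macrophages, had the largest change of the list (log2 fold change 3.73 ± 0.81 SE, adjusted p = 0.00606), with 2.58 CPM in Model 3 inside the range of the mice without. Cd163, a marker of resident macrophages, was at -0.79, adjusted p = 0.0740 and did not pass the test.

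The counts of T and B cell genes turned on 1 mouse without AOM/DSS. Of 28 T and NK cell genes listed, 24 were tested and 6 rose, 0 fell and 18 did not pass the test, where 14.4% of all genes rose. Those that rose were Cd4 (log2 fold change 1.26, adjusted p = 0.00214), the costimulatory receptor Icos (1.53, adjusted p = 9.4e-04), Ctla4 (1.42, adjusted p = 0.0119), Foxp3, the factor of regulatory T cells (1.55, adjusted p = 0.0415), Cd28 (0.83, adjusted p = 0.0390) and Il17a. Foxp3 lost its call in 9 of the 12 fits that left 1 mouse out. The T and NK cell list had a median log2 fold change of 1.25 in mice that did not swim and -0.05 in mice that swam. Of its genes, 13 were differential and higher without swimming and 1 with it. Without Ctrl_Swim 4, which held the highest T and NK cell sum of the mice without AOM/DSS (159 CPM, against 76.7 to 108 CPM in the others), 15 of the T and NK cell genes rose, and leaving out any other mouse gave 4 to 7. Of 21 B cell and follicle genes tested, 3 rose, 0 fell and 18 did not pass the test; the median log2 fold change of the list was 1.29 in mice that did not swim and -0.31 in mice that swam. That share of risers is close to the one over all genes, and without Ctrl_Swim 4 15 of the B cell genes rose. Among 16 plasma cell and IgA genes, 2 rose, 2 fell and 12 did not pass the test, and Jchain, the joining chain of secreted IgA, was at 0.11, adjusted p = 0.584. Of 18 genes of MHC class II presentation, 8 rose, 0 fell and 10 did not pass the test, Cd74, the invariant chain, being the one with the highest level (log2 fold change 0.74, adjusted p = 0.0270). The class II count ran from 3 to 12 with 1 mouse left out, at 3 without Ctrl 1 or Ctrl 2 and at 4 without Ctrl 3, Ctrl_Swim 2 or Model_Swim 3. The median of the class II list was 0.98 without swimming, with 8 genes differential and higher. With swimming the median was 0.18, with 0 such genes. Of 30 interferon-induced genes tested, 13 rose, 0 fell and 17 did not pass the test, with 8 risen without Ctrl 2. The risers there were mainly guanylate-binding proteins and GTPases such as Gbp2 (0.80, adjusted p = 0.0157) and Iigp1 (0.99, adjusted p = 0.0136), while Isg15 (0.04, adjusted p = 0.928) and Irf7 (0.14, adjusted p = 0.614) did not pass.

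The epithelium's own defence genes split. Of 25 tested, 12 rose, 2 fell and 11 did not pass the test, where 14.4% of all genes rose and 14.3% fell. Nos2, the inducible nitric oxide synthase, ran from 21.1 to 97.7 CPM (median 48.5) in the AOM/DSS mice and from 1.97 to 5.83 CPM (median 3.87) in the mice without, without overlap (log2 fold change 3.65 ± 0.38 SE, adjusted p = 1.3e-04). Duox2, the peroxide-making oxidase of the colonocyte surface, ran from 327 to 451 CPM (median 387) in the AOM/DSS mice and from 95.5 to 245 CPM (median 127) in the mice without (log2 fold change 1.43 ± 0.15 SE, adjusted p = 1.3e-04). Its maturation factor Duoxa2 ran from 56.6 to 98.05 CPM (median 66.5) in the AOM/DSS mice and from 8.19 to 30.01 CPM (median 13.7) in the mice without (log2 fold change 2.15 ± 0.20 SE, adjusted p = 7.9e-05). Ido1, which breaks down tryptophan (log2 fold change 3.11, adjusted p = 7.9e-05), the protease inhibitor Slpi (2.47, adjusted p = 0.00169), Lcn2, which binds bacterial siderophores (2.79, adjusted p = 0.00143), the acute-phase gene Saa1 (1.29, adjusted p = 0.00726) and the metalloproteinase Mmp7 (3.70, adjusted p = 0.00268) also rose. Reg3b (-0.30, adjusted p = 0.789) and Reg3g (-0.26, adjusted p = 0.785), antibacterial lectins, did not pass the test, and neither did Ang4 (-0.43, adjusted p = 0.643). Pigr, which carries IgA across the epithelium, fell (log2 fold change -0.35, adjusted p = 0.0122). Reg4, a lectin of the colon crypt, ran from 72.5 to 564 CPM (median 396) in the AOM/DSS mice and from 575 to 2051 CPM (median 1285) in the mice without, without overlap (log2 fold change -1.73 ± 0.51 SE, adjusted p = 0.0240). Its call rested on the mice that did not swim, where the log2 fold change was -2.98 against -0.48 in mice that swam, and without Model 1 and Model 3 it was -1.07, adjusted p = 0.0686. Reg1, with a log2 fold change of 8.05, is expressed in the pancreas, and was at 669 and 313 CPM in Model 1 and Model 3 and at most 0.654 CPM in the other AOM/DSS mice. Without those 2 mice its log2 fold change was -0.69, adjusted p = 0.417, and 11 of the 25 genes rose in place of the 12 that include it.

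Feedback inhibitors of Wnt rose, while most stem cell markers of the same list did not pass the test. Of the 25 genes of the list, 11 rose, 1 fell and 13 did not pass the test. Over all genes, 14.4% rose and 14.3% fell, and the list had a median log2 fold change of 0.54. Besides Notum, the secreted Wnt-binding protein Wif1 ran from 3.44 to 149.5 CPM (median 43.4) in the AOM/DSS mice and from 2.19 to 3.82 CPM (median 2.61) in the mice without (log2 fold change 4.21 ± 0.70 SE, adjusted p = 0.00158), its lowest AOM/DSS mouse, Model 3, lying inside the range of the others. Apcdd1, a membrane inhibitor of Wnt signalling, ran from 6.95 to 117 CPM (median 23.7) in the AOM/DSS mice and from 3.13 to 5.59 CPM (median 4.09) in the mice without, without overlap (log2 fold change 3.05 ± 0.60 SE, adjusted p = 0.00376). Prox1, a homeobox factor induced by Wnt in colon tumours and also found in lymphatic vessels, ran from 12.1 to 194 CPM (median 62.1) in the AOM/DSS mice and from 9.99 to 11.7 CPM (median 10.7) in the mice without (log2 fold change 2.69 ± 0.54 SE, adjusted p = 0.00407). Nkd1 (log2 fold change 1.98, adjusted p = 0.00718), Dkk2 (2.50, adjusted p = 0.00295), Sp5 (2.58, adjusted p = 0.00838) and Axin2 (0.74, adjusted p = 0.0398) rose too, Axin2 losing its adjusted p in 10 of the 12 fits that left 1 mouse out. Of the stem cell markers, Lgr5 (0.54, adjusted p = 0.360), Ascl2 (-0.11, adjusted p = 0.782), Smoc2 (0.41, adjusted p = 0.239) and Lrig1 (-0.13, adjusted p = 0.108) did not pass the test. The gene of the list that fell was Olfm4 (log2 fold change -3.04 ± 0.67 SE, adjusted p = 0.00657). It ran from 0.115 to 3.34 CPM (median 1.999) in the AOM/DSS mice and from 3.04 to 42.7 CPM (median 8.84) in the mice without. The height of the inhibitors varied between mice, with Notum at 104 in Model 1, 9.21 in Model 2, 0.631 in Model 3, 24.2 in Model_Swim 1, 27.8 in Model_Swim 2 and 29.7 in Model_Swim 3 CPM. Model 1, the highest for Notum, also held acinar transcripts, and without Model 1 and Model 3 the log2 fold changes were 5.73 for Notum, 3.66 for Wif1 and 2.34 for Apcdd1, all with adjusted p under 0.05. CTTTGAT, the core bound by TCF factors, was found on either strand in 2 of 23 promoters of the list and in 2.47% of those of tested genes.

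Most genes of fetal-like and regenerating epithelium rose. Of 24 listed, 19 were tested, and 16 rose, 0 fell and 3 did not pass the test, where 14.4% of all genes rose. The list had a median log2 fold change of 1.15, and 9 genes were higher without overlap, against 5.97% of all genes. Ly6a, the surface antigen Sca-1 of regenerating crypts, ran from 212 to 383 CPM (median 259.9) in the AOM/DSS mice and from 91.8 to 158 CPM (median 143) in the mice without (log2 fold change 1.07 ± 0.14 SE, adjusted p = 4.3e-04). The growth factor Ereg ran from 14.9 to 24.1 CPM (median 17.7) in the AOM/DSS mice and from 4.91 to 7.41 CPM (median 6.44) in the mice without (log2 fold change 1.55 ± 0.15 SE, adjusted p = 7.7e-05), and its relative Areg ran from 14.01 to 38.4 CPM (median 24.7) in the AOM/DSS mice and from 6.33 to 13.03 CPM (median 9.73) in the mice without (log2 fold change 1.37 ± 0.22 SE, adjusted p = 0.00129). Both are ligands of the EGF receptor, and both stood apart between the sets. Anxa1, an annexin induced in wound repair, rose (log2 fold change 1.44, adjusted p = 0.00566), as did the secreted chaperone Clu (1.05, adjusted p = 0.0169), the urokinase receptor Plaur (1.33, adjusted p = 6.2e-05) and osteopontin, Spp1 (3.42, adjusted p = 0.00493). Cldn4, a tight-junction claudin, ran from 50.6 to 174 CPM (median 104) in the AOM/DSS mice and from 13.1 to 37.3 CPM (median 25.6) in the mice without, without overlap (log2 fold change 2.01 ± 0.31 SE, adjusted p = 0.00111).

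Most proteases that cut the matrix and most collagens that form it rose. Over all genes, 14.4% rose and 5.97% were higher without overlap. Of the 24 metalloproteinases and inhibitors, 18 rose, 0 fell and 6 did not pass the test, and 12 were higher without overlap. Mmp10, a stromelysin, ran from 6.27 to 20.3 CPM (median 11.5) in the AOM/DSS mice and from 0.358 to 1.59 CPM (median 0.942) in the mice without (log2 fold change 3.68 ± 0.31 SE, adjusted p = 6.2e-05). Its neighbour Mmp3 (chr9:7445822-7455975, beside Mmp10 at chr9:7502342-7510242) ran from 5.83 to 18.4 CPM (median 12.3) in the AOM/DSS mice and from 0.927 to 2.30 CPM (median 1.21) in the mice without (log2 fold change 3.10 ± 0.30 SE, adjusted p = 8.3e-05). Neither overlapped, and their folds in the mice that did and did not swim were close, with 3.61 without and 3.77 with swimming for Mmp10 and 3.26 without and 2.95 with swimming for Mmp3. Adamts4 (log2 fold change 2.38, adjusted p = 4.4e-04), the macrophage elastase Mmp12 (2.63, adjusted p = 0.0105), the collagenase Mmp13 (1.46, adjusted p = 0.00240) and the inhibitor Timp1 (1.64, adjusted p = 0.00106) rose as well. Mmp9 (0.71, adjusted p = 0.0665) did not pass the test. Collagens and crosslinking enzymes rose by less per gene. Of 28, 22 rose, 0 fell and 6 did not pass the test, with a median log2 fold change of 0.70, and 17 did not overlap. Their sum ran from 2231 to 2916 CPM (median 2590.3) in the mice without AOM/DSS and from 3395 to 4682 CPM (median 4314) in the mice given it, without overlap. Col1a1, the main chain of type I collagen, ran from 274 to 571 CPM (median 426) in the AOM/DSS mice and from 164 to 243 CPM (median 205) in the mice without (log2 fold change 1.05 ± 0.12 SE, adjusted p = 2.5e-04). Lox, the enzyme that crosslinks collagen, ran from 17.8 to 32.3 CPM (median 26.2) in the AOM/DSS mice and from 7.56 to 9.88 CPM (median 8.43) in the mice without (log2 fold change 1.51 ± 0.13 SE, adjusted p = 6.2e-05). Col3a1 (0.78, adjusted p = 2.6e-04), Col1a2 (0.80, adjusted p = 1.7e-04) and the basement-membrane chains Col4a1 (0.83, adjusted p = 8.5e-05) and Col4a2 (0.80, adjusted p = 6.2e-05) rose by less than 2-fold.

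The lowest adjusted p of the main comparison was that of a gene of fibroblasts. Grem1 (chr2:113748675-113758648), an antagonist of bone morphogenetic proteins made by crypt fibroblasts, ran from 62.9 to 93.9 CPM (median 83.8) in the AOM/DSS mice and from 20.2 to 26.2 CPM (median 23.7) in the mice without (log2 fold change 1.76 ± 0.08 SE, adjusted p = 1.2e-06). The spread within each set was small beside the gap between them. Of 27 fibroblast and matricellular genes tested, 21 rose, 0 fell and 6 did not pass the test, where 14.4% of all genes rose. The list had a median log2 fold change of 0.63. Inhba, which encodes the activin A subunit, ran from 1.78 to 4.77 CPM (median 3.19) in the AOM/DSS mice and from 0.716 to 1.05 CPM (median 0.931) in the mice without (log2 fold change 1.81 ± 0.25 SE, adjusted p = 5.5e-04). Spon2 (log2 fold change 1.40, adjusted p = 4.4e-04), Thbs2 (1.12, adjusted p = 0.00103), Fn1, fibronectin (0.79, adjusted p = 0.00144), and Sparc (0.66, adjusted p = 8.1e-04) rose, while periostin, Postn (0.11, adjusted p = 0.265), and tenascin C, Tnc (0.30, adjusted p = 0.0755), did not pass. Most endothelial genes did not pass the test. Of 23 tested, 8 rose, 0 fell and 15 did not pass the test, a larger share risen than the 14.4% over all genes. Those that rose were largely the adhesion molecules of leukocyte entry. Selp, P-selectin, ran from 8.78 to 16.9 CPM (median 13.8) in the AOM/DSS mice and from 2.78 to 4.42 CPM (median 3.67) in the mice without (log2 fold change 1.92 ± 0.19 SE, adjusted p = 8.3e-05), and Sele, E-selectin, ran from 0.976 to 3.16 CPM (median 1.37) in the AOM/DSS mice and from 0 to 0.331 CPM (median 0.163) in the mice without (log2 fold change 3.30 ± 0.56 SE, adjusted p = 0.00172). Icam1 (0.97, adjusted p = 7.4e-04), Vcam1 (0.94, adjusted p = 0.00263) and Madcam1 (0.66, adjusted p = 0.0346) rose by smaller steps, and Pecam1 (0.20, adjusted p = 0.221), Cdh5 (0.28, adjusted p = 0.0914) and Kdr (0.01, adjusted p = 0.934), which mark endothelial cells as such, did not pass the test.

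**Figure D2:**
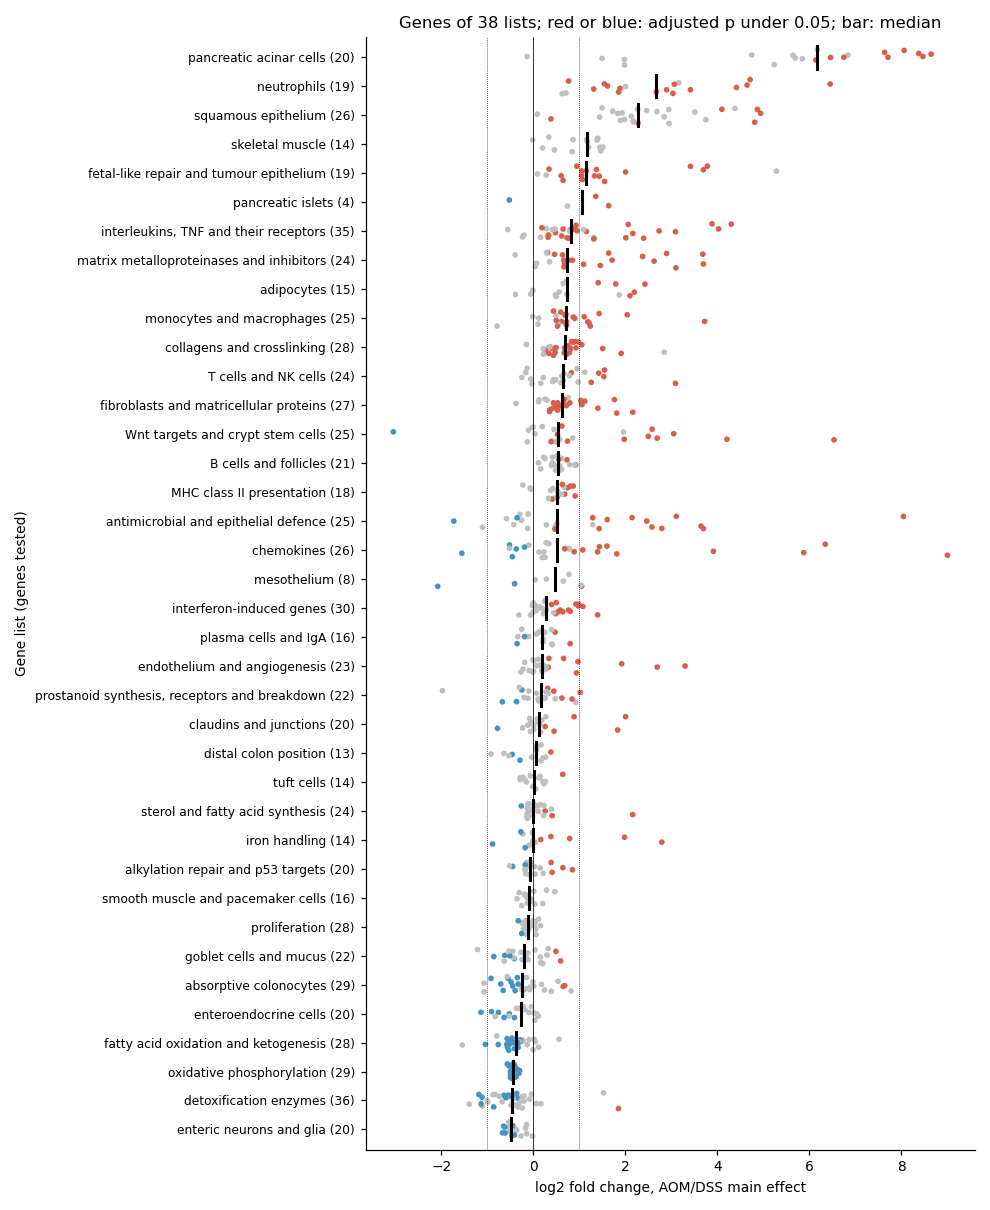
Each row is 1 of 38 gene lists with its number of genes tested, each point a gene's log2 fold change with AOM/DSS over the 12 mice (red risen and blue fallen at adjusted p under 0.05, grey neither), and each bar the list's median. Neutrophil genes have a median of 2.67, and the 29 genes of oxidative phosphorylation all lie below 0.

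The 12 largest decreases without overlap were of Pdzk1, Cps1, Slc37a2, Reg4, Zmat4, Malrd1, Pcdh17, Ano2, Ccl25, Galr2, Bcan and Actc1, of which Reg4 and Ccl25 are described above. Cps1 (chr1:67122426-67231267), the carbamoyl phosphate synthase that starts the urea cycle, ran from 1.21 to 14.7 CPM (median 10.6) in the AOM/DSS mice and from 31.7 to 91.4 CPM (median 52.1) in the mice without, without overlap (log2 fold change -2.63 ± 0.42 SE, adjusted p = 0.00114). Model 3 was far below the rest at 1.21 CPM, and without Model 1 and Model 3 the log2 fold change was -2.25, adjusted p = 0.00141. Slc37a2, a sugar phosphate exchanger, ran from 8.55 to 98.3 CPM (median 48.6) in the AOM/DSS mice and from 106 to 284 CPM (median 163) in the mice without (log2 fold change -1.94 ± 0.44 SE, adjusted p = 0.00751). Pcdh17, a protocadherin, ran from 6.49 to 10.8 CPM (median 9.25) in the AOM/DSS mice and from 19.7 to 36.01 CPM (median 27.9) in the mice without (log2 fold change -1.63 ± 0.17 SE, adjusted p = 1.5e-04). Cps1 and Pcdh17 were the 2 genes that were differential and lower in the mice that swam and in those that did not, each taken alone. The brush-border scaffold Pdzk1 had the largest fold (log2 fold change -2.72, adjusted p = 0.00744), from a median of 1.94 CPM to 0.244 CPM. Malrd1 (-1.70, adjusted p = 0.0142), the galanin receptor Galr2 (-1.50, adjusted p = 0.00415), the chloride channel Ano2 (-1.56, adjusted p = 0.00796), the proteoglycan Bcan (-1.42, adjusted p = 0.0136), cardiac actin, Actc1 (-1.37, adjusted p = 0.00880), and Zmat4 (-1.71, adjusted p = 0.0168) also fell.

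Below these single genes lay a broad and shallow fall in mitochondrial genes. All 29 genes of oxidative phosphorylation fell, 27 of them without overlap between the 6 and 6 mice, against 14.3% and 6.44% of all genes. Their log2 fold changes ran from -0.57 to -0.30, none past 2-fold. Ndufb5, a subunit of complex I, ran from 72.4 to 83.97 CPM (median 77.8) in the AOM/DSS mice and from 103 to 127 CPM (median 116) in the mice without (log2 fold change -0.57 ± 0.06 SE, adjusted p = 1.3e-04). Atp5b, the catalytic subunit of ATP synthase, ran from 1391 to 1746 CPM (median 1632) in the AOM/DSS mice and from 1881 to 2224 CPM (median 2173) in the mice without (log2 fold change -0.39 ± 0.08 SE, adjusted p = 0.00426). The sum of the list ran from 10531 to 12259 CPM (median 11981) in the mice without AOM/DSS and from 7554 to 9500.3 CPM (median 8884) in the mice given it. The median log2 fold change was -0.59 in mice that did not swim and -0.28 in mice that swam, and all 29 genes were below 0 in each. Of 28 genes of fatty acid oxidation and ketogenesis, 0 rose, 16 fell and 12 did not pass the test, with a median log2 fold change of -0.38. Hadh (-0.57, adjusted p = 7.4e-04), Acads, which acts on butyrate (-0.52, adjusted p = 0.0139), Bdh1 of ketone body metabolism (-0.53, adjusted p = 0.00291), and the regulator Ppara (-0.76, adjusted p = 0.0488) were among those that fell. Fabp2, the intestinal fatty-acid binding protein, ran from 90.4 to 398 CPM (median 295) in the AOM/DSS mice and from 402 to 610.2 CPM (median 497) in the mice without (log2 fold change -1.04 ± 0.29 SE, adjusted p = 0.0178).

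These mitochondrial genes have short transcripts, and the libraries differed by transcript length. The length that relates the deposited counts to the deposited FPKM values was below 2119 bases for the shortest 25% of tested genes, which had a median log2 fold change of -0.13 with 9.22% risen and 28.03% fallen. For the longest 25%, over 5426 bases, the median was 0.10 with 21.9% risen and 4.47% fallen. Fitted within each library, the trend at the shortest genes was positive in all 6 mice without AOM/DSS and negative in all 6 with it. Of the 29 oxidative phosphorylation genes, 25 were in the shortest 25%. They are also highly expressed: 24 of them were both in the shortest 25% and in the 25% of genes with the highest mean CPM. Among all 840 such genes, 50.0% fell, with a median log2 fold change of -0.20, and 20.95% fell once each library's length trend was removed. With each library's length trend removed, 24 of the 29 still fell, with a median log2 fold change of -0.31, as did 16 of the 28 fatty acid oxidation genes and 4 of the 20 enteric neuron and glia genes, of which 9 fell before. Over all genes, 1834 rose and 1731 fell after that step, and 494 and 82 were differential. Whether the length trend came from the tissue or from the RNA and library was not tested.

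**Figure D3:**
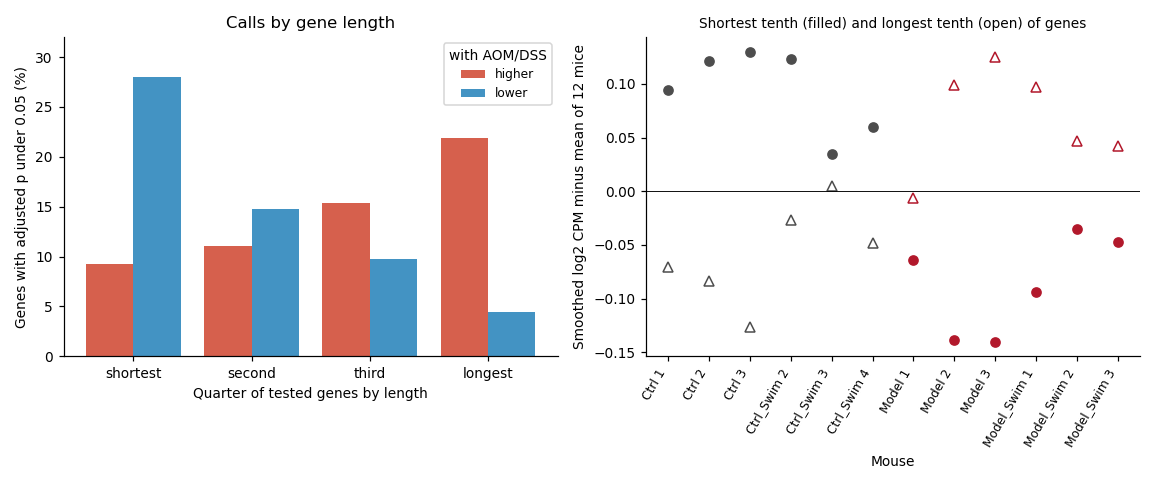
Left, the percent of tested genes risen (red) and fallen (blue) with AOM/DSS in each 25% of genes by length, falling from 28.03% to 4.47% for the fallen and rising from 9.22% to 21.9% for the risen. Right, the smoothed log2 CPM of each of the 12 mice minus their mean for the shortest (filled) and longest (open) 10% of genes, the filled points lying above 0 in the 6 mice without AOM/DSS and below 0 in the 6 with it.

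Among enzymes that conjugate and clear foreign compounds, more fell than rose. Of 36 tested, 1 rose, 10 fell and 25 did not pass the test, with a median log2 fold change of -0.46, where 14.3% of all genes fell. Without Model 3, 22 of them fell. Ugt2b35, a glucuronosyltransferase, ran from 16.7 to 25.2 CPM (median 19.6) in the AOM/DSS mice and from 40.9 to 52.8 CPM (median 45.2) in the mice without, without overlap (log2 fold change -1.18 ± 0.10 SE, adjusted p = 6.2e-05). Sult1a1 (-1.12, adjusted p = 0.00177) and Sult1c2 (-1.14, adjusted p = 0.00101), which are sulfotransferases, were also differential. The glutathione transferases Gstm1 (-0.36, adjusted p = 0.00387) and Gstm3 (-0.54, adjusted p = 0.00306) fell by less than 2-fold. Cyp2e1, a cytochrome P450 that is also expressed in fat and liver, was the member that rose (1.85, adjusted p = 0.0250), and without Model 1 and Model 3 it was at 1.52, adjusted p = 0.0865. Among 29 genes of absorptive colonocytes, 2 rose, 9 fell and 18 did not pass the test. Guca2a, guanylin (-0.71, adjusted p = 0.0102), Car2, a carbonic anhydrase (-0.92, adjusted p = 4.2e-04), and the chloride channel Cftr (-0.66, adjusted p = 5.4e-04) fell, and the water channel Aqp8 rose (0.65, adjusted p = 0.0431). Slc26a3, the chloride-bicarbonate exchanger of the surface, was at -0.25, adjusted p = 0.465, and Car1, with 410.4 CPM in Model 1 and a median of 6798 CPM without AOM/DSS, was at -1.07, adjusted p = 0.205.

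Goblet cell genes moved in both directions and the enteroendocrine genes that passed the test all fell, where 14.4% of all genes rose and 14.3% fell. Of 22 goblet cell and mucus genes, 2 rose, 4 fell and 16 did not pass the test. Muc2 (-0.12, adjusted p = 0.718) and Clca1 (-0.15, adjusted p = 0.845) did not pass, Zg16, a mucus lectin (0.59, adjusted p = 0.0146), and Muc13 (0.49, adjusted p = 0.00343) rose, and Spink4 (-0.86, adjusted p = 0.0388), Agr2 (-0.51, adjusted p = 0.0297), Klk1 (-0.62, adjusted p = 0.00295) and Creb3l1 (-0.42, adjusted p = 7.4e-04) fell. The goblet genes that fell numbered 7 without Ctrl_Swim 4 or Model_Swim 1 and 2 without Ctrl 1, Ctrl 2, Ctrl 3, Model 1, Model 2 or Model_Swim 3, and those that rose numbered 4 without Model 1. The median of the list was -0.59 without swimming and 0.22 with it. Of 20 enteroendocrine genes, 0 rose, 6 fell and 14 did not pass the test. Somatostatin, Sst, ran from 6.92 to 32.03 CPM (median 18.5) in the AOM/DSS mice and from 27.4 to 44.9 CPM (median 39.98) in the mice without (log2 fold change -1.14 ± 0.24 SE, adjusted p = 0.00568), and the prohormone convertase Pcsk1 (-0.91, adjusted p = 0.00569) and glucagon, Gcg (-0.52, adjusted p = 0.0215), fell too. Of 14 tuft cell genes, 1 rose, 0 fell and 13 did not pass the test. Of the 28 proliferation genes, 0 rose, 2 fell and 26 did not pass the test, a smaller share than over all genes in both directions, and Mki67 ran from 223 to 318 CPM (median 271) in the AOM/DSS mice and from 197 to 351 CPM (median 294) in the mice without (log2 fold change -0.04, adjusted p = 0.757). None of the 16 smooth muscle and pacemaker genes passed the test, with a median log2 fold change of -0.09. Of 20 enteric neuron and glia genes, 0 rose, 9 fell and 11 did not pass the test, among them the synaptic genes Syt1 (-0.67, adjusted p = 0.00406) and Snap25 (-0.62, adjusted p = 0.00635) and the glial Sox10 (-0.61, adjusted p = 0.0268). The median of that list was -0.48, and 5 fell without Ctrl 2 or Ctrl 3 and 4 without Ctrl_Swim 3 or Model_Swim 3.

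Smaller pathways had single genes that moved, and their counts are to be read beside all genes, of which 14.4% rose and 14.3% fell. Of 24 genes of sterol and fatty acid synthesis, 3 rose, 1 fell and 20 did not pass the test, and Scd1, the stearoyl-CoA desaturase, stood alone with from 241 to 905 CPM (median 356) in the AOM/DSS mice and from 68.2 to 159 CPM (median 85.3) in the mice without, without overlap (log2 fold change 2.16 ± 0.34 SE, adjusted p = 0.00120). Sqle, an enzyme of sterol synthesis (-0.09, adjusted p = 0.492), did not pass the test. Of 14 iron-handling genes, 5 rose, 3 fell and 6 did not pass the test, with 3 risen without Ctrl 1, Ctrl 2, Ctrl 3 or Model_Swim 2. Steap4, a metalloreductase, ran from 28.5 to 71.7 CPM (median 37.7) in the AOM/DSS mice and from 8.25 to 16.5 CPM (median 9.98) in the mice without (log2 fold change 1.98 ± 0.24 SE, adjusted p = 2.7e-04), and the transferrin receptor Tfrc ran from 149.9 to 265 CPM (median 211) in the AOM/DSS mice and from 317 to 423 CPM (median 376) in the mice without and fell without overlap (log2 fold change -0.89 ± 0.12 SE, adjusted p = 6.4e-04). The ferritin chains Fth1 (-0.02, adjusted p = 0.900) and Ftl1 (-0.06, adjusted p = 0.592) did not pass the test. Of 22 genes of the prostanoid pathway, 5 rose, 3 fell and 14 did not pass the test, with 3 risen without Ctrl_Swim 2. Ptgs2, which encodes COX-2, ran from 10.1 to 15.4 CPM (median 10.3) in the AOM/DSS mice and from 3.32 to 9.54 CPM (median 6.21) in the mice without (log2 fold change 0.84 ± 0.19 SE, adjusted p = 0.00672), and Ptges, the inducible prostaglandin E synthase, ran from 13.1 to 22.7 CPM (median 15.2) in the AOM/DSS mice and from 5.72 to 9.26 CPM (median 8.48) in the mice without (log2 fold change 1.02 ± 0.15 SE, adjusted p = 9.7e-04). Hpgd, which degrades prostaglandins, fell (-0.67, adjusted p = 0.0213). All 3 were without overlap, whereas the receptor Ptger2 (0.10, adjusted p = 0.687) and the phospholipase Pla2g4f (0.92, adjusted p = 0.0548) did not pass the test; without Model 1 and Model 3, Pla2g4f was at 0.97, adjusted p = 0.00916. Of 20 claudin and junction genes, 5 rose, 1 fell and 14 did not pass the test, Cldn15, a pore-forming claudin, falling (-0.78, adjusted p = 0.00230) and Cldn1 (1.83, adjusted p = 0.0286) and Cldn8 (0.88, adjusted p = 0.0239) rising, and 3 of the list rose without Ctrl 2 or Ctrl 3. Fzd9, a Wnt receptor, was differential and lower (-1.01, adjusted p = 0.0275), with its call lost in 6 of the 12 fits that left 1 mouse out. Of 20 genes of alkylation repair and p53 targets, 4 rose, 2 fell and 14 did not pass the test; Mgmt, which repairs alkylated guanine, was at -0.52, adjusted p = 0.0640, Cdkn1a at -0.05, adjusted p = 0.805, and Mdm2 rose (0.39, adjusted p = 0.00109).

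Transcripts of other tissues entered the count of differential genes. Of 27 acinar genes listed, 20 were tested, of which 9 rose, 0 fell and 11 did not pass the test, with log2 fold changes up to 8.65. The medians were 9.05 in mice that did not swim and -1.13 in mice that swam, and without Model 1 and Model 3 the median was -0.68, with 3 of its genes risen. Leaving out 1 mouse gave 3 to 15 acinar genes risen, 3 or 4 without Ctrl 1, Ctrl 2 or Ctrl 3 and 15 without Ctrl_Swim 3 or Model 2. Of 4 islet genes tested, 2 rose, 1 fell and 1 did not pass the test. Of 26 squamous genes, 6 rose, 0 fell and 20 did not pass the test, with medians of 6.81 in mice that did not swim and 0.67 in mice that swam. Without Ctrl_Swim 4, 22 of them rose, and without Model 1 and Model 3, 8. Krt6a, a keratin of stratified epithelium, was at 68.1 in Model 1, 174 in Model 2, 0.287 in Model 3, 14.9 in Model_Swim 1, 139 in Model_Swim 2 and 208 in Model_Swim 3 CPM and reached 24.9 CPM without AOM/DSS (log2 fold change 4.87 ± 1.26 SE, adjusted p = 0.0139). Krt14, of basal cells, was at 4.10, adjusted p = 0.0415, and was lost in 9 of the 12 fits that left 1 mouse out. Of 15 adipocyte genes, 5 rose, 0 fell and 10 did not pass the test, those being the secreted Cfd (2.10, adjusted p = 0.0108) and Retn (2.20, adjusted p = 0.0152), the lipid-droplet protein Plin1 (2.43, adjusted p = 0.0273), Car3 (1.41, adjusted p = 0.0348) and Thrsp (1.79, adjusted p = 0.0286); adiponectin, Adipoq, was at 1.87, adjusted p = 0.0656. Without Model 1 and Model 3, 2 adipocyte genes rose, and Model 3 held the highest sum of the list (1104 CPM). Leaving out 1 mouse gave 8 without Model 1, 3 without Ctrl 1 or Ctrl 2 and 2 without Ctrl_Swim 2, Ctrl_Swim 3, Model 3 or Model_Swim 1. Of 14 skeletal muscle genes, 0 rose, 0 fell and 14 did not pass the test. Of 8 mesothelial genes, 1 rose, 2 fell and 5 did not pass the test. Of 13 genes that mark position along the colon, 1 rose, 2 fell and 10 did not pass the test. Over all genes, 14.4% rose and 14.3% fell. With the mean log2 CPM of the squamous genes as a covariate, 257 genes were differential and higher in place of 488. With that of the acinar genes 374 were, while 67 and 51 were lower in place of 97. The acinar sum was high in Model 1 and Model 3 alone. The squamous sum passed that of every mouse without AOM/DSS in Model 1, Model 2, Model_Swim 2 and Model_Swim 3. With these covariates tissue content and AOM/DSS therefore cannot be told apart.

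**Figure D4:**
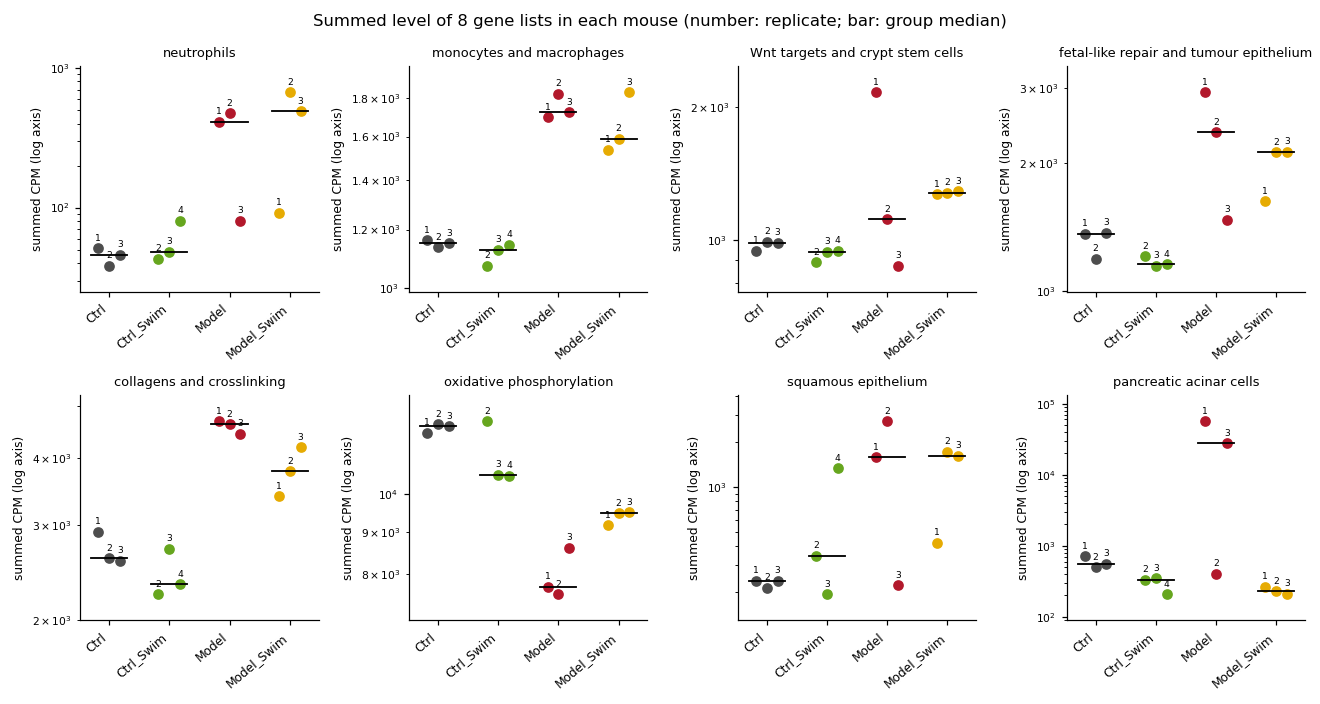
Summed CPM (log axis) of 8 gene lists in each of the 12 mice, by group, with the replicate number as the point and a bar at the group median. Collagens and oxidative phosphorylation separate the 6 and 6 mice, whereas acinar genes are high in Model 1 and Model 3 and squamous genes overlap between the sets.

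The response could be looked at on separate mice, since Model against Ctrl and Model_Swim against Ctrl_Swim share none. Without swimming, 1150 genes were differential, 961 higher (6.21%) and 189 lower (1.22%). With swimming, 155 were, 143 higher (0.924%) and 12 lower (0.0775%). Both comparisons called 113 genes, 111 higher (0.717%) and 2 lower (0.0129%), none in opposite directions. The count in both was 206 with DESeq2 and 15 with the replicate number as a block. It was 214 without Model 3, and 39 to 72 without Ctrl 2, Ctrl_Swim 2, Ctrl_Swim 3, Model_Swim 1, Model_Swim 2 or Model_Swim 3. The count without swimming was 696 without Ctrl 2 and 758 without Ctrl 3, and that with swimming was 275 without Model 3 and 53 to 93 without Ctrl_Swim 2, Ctrl_Swim 3, Model_Swim 1, Model_Swim 2 or Model_Swim 3. The 113 genes called in both were 9.83% of those called without swimming and 72.9% of those called with it. All 113 were among the 585 of the main comparison. The 585 were chosen on the same 12 mice, and that choice favours a shared sign, so the following counts are a description. Of the 585, 577 had the same sign in both, 478 were also called without swimming, 127 with it and 93 in neither. The 8 without a shared sign were Amy2a5, Cela3b, Ctrl, Gp2, Prss2, Reg1, Try4 and Try5, all expressed in the acinar pancreas and high in Model 1 and Model 3. Over all genes tested, 68.8% had the same sign, and across genes the Pearson correlation of the 2 sets of log2 fold changes was 0.18 and Spearman's 0.48, given as a description since genes are not independent and both come from 1 fit.

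Genes called in both comparisons were over 2-fold in each by that choice, so their sizes are a description. The 111 called higher had a median log2 fold change of 1.83 without and 1.72 with swimming, 49 of them being larger with swimming, and 100 did not overlap between the 6 and 6 mice. Mmp10 (3.61 without and 3.77 with swimming), Il1b (4.09 without and 3.69 with swimming), Nos2 (3.85 without and 3.43 with swimming), Selp (1.92 without and 1.92 with swimming) and Gpnmb (1.92 without and 2.16 with swimming) were among them. Genes called in the main comparison as a whole were farther from 0 without swimming, with medians of 1.85 against 1.46 for the 488 increases and -1.70 against -0.99 for the 97 decreases. The change was larger without swimming in 371 of the increases and 82 of the decreases. Model 1 and Model 3, which held acinar transcripts, were among the mice that did not swim. Ctrl_Swim 4, high in squamous and T cell genes, was among those that swam. The part of these mice in that difference was not tested. Reg4 (-2.98 without and -0.48 with swimming), Fabp2 (-1.67 without and -0.42 with swimming) and Foxp3 (2.52 without and 0.64 with swimming) were examples of a change larger without swimming. Each comparison's own calls were then read in the other mice. Genes called without swimming had a median of 1.61 there and 0.52 in the same direction with swimming, and 81.04% kept the sign, while genes called with swimming had 1.59 there and 1.63 without swimming, and 97.4% kept the sign. The difference itself was tested as an interaction. No gene was called (0%) with edgeR, the lowest adjusted p being 0.0547, while 2947 genes (19.03%) had an unadjusted p under 0.05 and DESeq2 called 213. Among the 585 genes, 76 (12.99%) had an unadjusted p under 0.05. The count depended on single mice, reaching 243 without Model 3, and a count of 0 does not show that the mice responded alike.

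**Figure D5:**
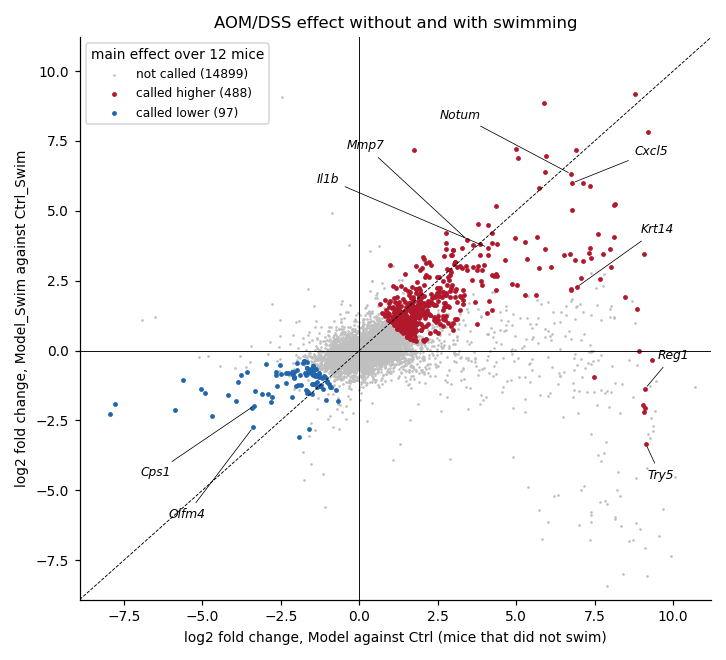
Each point is a gene, with its log2 fold change for Model against Ctrl on the horizontal axis and for Model_Swim against Ctrl_Swim on the vertical axis, 3 mice in each group, and the 488 higher and 97 lower differential genes of the main comparison in colour. Of these 585 genes, chosen on the same mice, 577 have the same sign on both axes, and the acinar genes form the points far to the right at or below 0.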

How the data were processed

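RNA from the colorectal tissue of 12 male mice was sequenced, 1 library per mouse and 3 mice in each of 4 groups, with groups taken from the sample labels. The extraction kit is named differently in the labels (mirVana) and in the study's methods (TRIzol), and the library kit was TruSeq Stranded mRNA. After trimming (Trimmomatic) and alignment to GRCm38.p6 (HISAT2), the authors deposited raw gene counts from HTSeq-count and FPKM values from Cufflinks for 18514 symbols. Tool versions, annotation release and the strand setting of counting are not given in the sources used here, so reads of overlapping or near-identical genes (the trypsins, the amylases, Sprr2 genes) may be shared. In 12 names a date replaced the symbol, and 17577 symbols matched RefSeq for GRCm38.p6, the source of positions and promoters.

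Counts were fitted in R 4.3.3 with edgeR 4.0.16: TMM scaling, filterByExpr with a minimum count of 10 (15484 genes kept), and quasi-likelihood tests of AOM/DSS with swimming as an additive term, or of contrasts between the 4 groups. P-values were adjusted by Benjamini-Hochberg over all genes tested. SE is the absolute log2 fold change divided by the root of the F statistic. Fitted folds use the default prior count of edgeR, so folds of genes near 0 counts are little shrunk. A prior count of 2 was used only for the log2 CPM values behind covariates, length trends and pair correlations. On simulated counts, 194 of 200 genes changed 4-fold were recovered in the main comparison with 5 other calls among 15342 genes. Smaller changes were not simulated, while the differential genes had a median log2 fold change of 1.68 above and -1.37 below. The spread between pairs of mice, as chi-square per degree of freedom, was 79.3 to 117.6 within Model and 7.68 to 23.0 within the other groups. Whether the simulated rates hold at the spread within Model was not tested. Depth was 17256953 to 19451055 counts per library, and limits from counts cover counting error only. The mice were separate animals, randomised to groups per the study's methods, and p-values measure the spread between these 12. Length trends were smoothed over the length implied by counts and FPKM and, as an alternative chosen after seeing the data, removed as offsets. Other alternatives were DESeq2 1.42.0, its size factors, limma 3.58.1 on log2(FPKM + 1) and log2(FPKM + 0.1), other filters and terms, and leaving out mice.

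The groups of mice follow the design. The 38 gene lists and the tests were chosen with earlier results of these data known. Genes were named by rule: the 12 largest differential increases and decreases without overlap (mean level 1 CPM or more, no pseudogene, unnamed model or antigen receptor segment being named); of each list, up to 3 differential members with the largest change and the 2 with the highest level; and 7 genes of the study's text. Other members given as examples, and the families of the closing section, were chosen after their values were seen.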

Additional observations from a re-analysis of the deposited data

Results flagged for a closer look

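In 124 sets of 6 mice (levels of named genes and sums of lists, with or without AOM/DSS), the mouse farthest out was tested by Dixon's ratio, and 9 sets had a mouse apart from the other 5, where chance gives about 1 in 20. The sets share mice and some genes, and 9 of 124 is not far above that rate. Of these, 6 concern Model 1 or Model 3. Among AOM/DSS mice, Model 1 was low for the prostanoid sum (689 CPM, median of the 6 mice 953), the sum of enteric neuron and glia genes (157 CPM, median 269) and Ccl25 (1.98 CPM, median 4.19), and high for the endothelial sum (869 CPM, median 772). Model 3 was low for Cps1 (1.21 CPM, median 10.6) and Reg4 (72.5 CPM, median 396). Model 2 was high for the sum of MHC class II genes (3448 CPM, median 1698). Among the mice without AOM/DSS, Ctrl_Swim 2 was high for the iron-handling sum (4751 CPM, median 4149) and Ctrl_Swim 4 for the squamous sum (1324 CPM, median 236).

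Cps1, Reg4 and Ccl25 were named by a rule that asks for no overlap. That all 6 AOM/DSS mice lay below all 6 others was therefore fixed by the choice, with or without the mouse that stood apart. Model 1 and Model 3 were also the libraries with pancreatic acinar transcripts, and the part of the tissue cut in these values was not tested.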

How the results depend on the processing

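The main counts, 488 higher and 97 lower, stayed within 1.5 times under no swimming term, DESeq2, its size factors, no filter on low counts and the length trend removed. They moved with adjusted p alone (2225 and 2207, with 5066 for Model against Ctrl, 802 for Model_Swim against Ctrl_Swim and 629 in both), with limma on log2(FPKM + 1) (177 and 42, with 451, 75 and 58) and with limma without a filter (160 and 37, with 426, 59 and 48), where the pseudocount shrinks the folds of low genes. A squamous covariate left 257 higher and an acinar covariate 51 lower. DESeq2 called 274 genes with swimming, 206 in both and 213 for the interaction, and without Model 1 and Model 3 these were 328, 207 and 246. Leaving out 1 mouse gave 382 to 862 higher (862 without Ctrl_Swim 4) and 72 to 138 lower, 696 to 1623 for Model against Ctrl (lowest without Ctrl 2 and Ctrl 3, highest without Model 3), 53 to 275 for Model_Swim against Ctrl_Swim (275 without Model 3, 53 without Model_Swim 3), 39 to 214 in both (same mice) and 0 to 243 for the interaction (243 without Model 3). Where other causes of these shifts are concerned, the cause was not tested. Without Model 1 and Model 3 and with the acinar covariate the log2 fold changes were -0.69 and -0.29 for Reg1, -0.85 and -0.45 for Try4 and -1.27 and -0.83 for Try5, whose reads lay in those 2 mice.

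What the replicate numbers stand for is not given in the sources used here. Deviations of the 15 same-number pairs correlated at -0.26 to 0.56, 4 of them over 0.1, and those of pairs with different numbers at -0.56 to 0.45. Such correlations cannot show whether mice of 1 number shared handling, which was not tested. With the replicate block 825 genes were higher and 89 lower, 18 were called with swimming and 15 in both, and 90.3% of calls were higher against 83.4% without it. At this depth, genes whose mean without AOM/DSS was under 3 counts (Il17a, Cxcl2, Csf3, Mmp8, Clec4e, Amy2a5, Onecut2, Khdc1a, Prss22 and Cxcl3, which had none) have a direction but no fold of firm size.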

Other observations

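Some families outside the lists also moved as a body. Of 77 mitochondrial ribosomal protein genes, 73 fell and none rose, with a median log2 fold change of -0.32 and 55 without overlap between the 6 and 6 mice, and of 83 cytosolic ribosomal protein genes 80 fell, with a median of -0.31. With the length trend of each library removed, 40 and 14 of them fell, with medians of -0.19 and -0.10, so the cytosolic family depended on that step in most members. The pyruvate dehydrogenase complex and citric acid cycle, which feed the respiratory chain, had 19 of 21 genes fallen (median -0.41), and 20 with the trend removed. Glycolysis, which makes pyruvate in the cytosol, had 1 risen and 4 fallen of 17 genes (median -0.06). Over all genes 14.4% rose and 14.3% fell, and 6.44% were lower without overlap.

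Mast cells, which store proteases in granules, were not among the lists. Of 12 of their genes tested, 5 rose, all of them differential: the proteases Mcpt4 (log2 fold change 2.44, adjusted p = 0.0136), Cma1 (2.01, adjusted p = 0.00116), Tpsb2 (2.40, adjusted p = 9.2e-04) and Cpa3 (2.36, adjusted p = 0.00462) and the histamine-making Hdc (1.69, adjusted p = 0.0150). Mcpt4 ran from 1.78 to 6.06 CPM (median 2.73) in the AOM/DSS mice and from 0.0532 to 1.55 CPM (median 0.575) in the mice without, without overlap. The median of the family was 1.46 in mice that did not swim and 2.34 in mice that swam. Over all genes, 14.4% rose and 3.15% were differential and higher. Of 11 laminin chains, which build the basement membrane, 9 rose and none fell (median 0.44), and Lama1 (1.65, adjusted p = 6.2e-05), Lama3 (1.67, adjusted p = 1.1e-04) and Lama5 (1.11, adjusted p = 5.7e-04) were differential.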
